A study of Mus musculus with 4 samples.

Results

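The Tmem genes are mouse genes that were named only because their products were predicted to span a membrane, and they do not form a family by descent. The members described here are the rows of the deposited expression table whose symbol is Tmem, a number and optional lower-case letters. There were 245 of them among 49568 genes. The study sequenced RNA of purified migrasomes, labelled replicates 1 and 2, and of cytosol, also labelled replicates 1 and 2, from mouse material. Migrasomes are large vesicles that grow on the retraction fibres behind a migrating cell. The labels give no strain, treatment, age, cell type or purification steps for either group, and nothing in them states that the replicates are independent cultures. The p-values therefore cover the spread between these samples alone, which may be technical.

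Most membrane proteins of the secretory route are made by ribosomes bound to the endoplasmic reticulum (ER). A hydrophobic segment that emerges from the ribosome is recognised by the signal recognition particle, and the mRNA is thereby held at the ER surface while it is translated. Proteins of the mitochondrial inner membrane are instead mostly imported after or during synthesis from ribosomes that are free or near the mitochondrion, and proteins whose only membrane segment lies at the tail are inserted after they are complete. The Tmem names cover all of these kinds.

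The strongest hydrophobic stretches of 7 members are shown first, since the results below are given by protein length and by the number of such stretches. Each line is coding sequence, 5′ to 3′, from the GENCODE M21 transcripts of the build GRCm38. The capitals mark the 57 bases that encode the most hydrophobic window of 19 residues, and the lower-case bases are up to 7 codons on either side.
Tmem170b: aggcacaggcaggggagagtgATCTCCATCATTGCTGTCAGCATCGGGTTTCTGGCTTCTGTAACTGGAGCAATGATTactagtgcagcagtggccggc
Tmem170: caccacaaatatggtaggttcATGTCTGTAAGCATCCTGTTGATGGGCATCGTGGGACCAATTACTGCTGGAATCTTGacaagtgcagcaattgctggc
Tmem14c: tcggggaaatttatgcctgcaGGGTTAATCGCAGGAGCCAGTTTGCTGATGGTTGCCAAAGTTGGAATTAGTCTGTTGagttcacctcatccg
Tmem242: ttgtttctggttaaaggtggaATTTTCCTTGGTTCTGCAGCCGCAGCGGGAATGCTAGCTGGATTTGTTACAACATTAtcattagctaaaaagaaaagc
Tmem258: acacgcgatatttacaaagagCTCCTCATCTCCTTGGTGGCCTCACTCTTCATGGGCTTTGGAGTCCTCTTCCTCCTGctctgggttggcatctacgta
Tmem97: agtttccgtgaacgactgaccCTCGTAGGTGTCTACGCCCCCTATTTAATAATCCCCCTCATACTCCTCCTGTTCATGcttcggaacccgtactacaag
Tmem109: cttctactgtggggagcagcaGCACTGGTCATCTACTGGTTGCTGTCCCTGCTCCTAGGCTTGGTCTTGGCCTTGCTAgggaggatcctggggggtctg

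The stretches of Tmem97 (chr11:78542564-78542662), Tmem109 (chr19:10872001-10872099), both on the minus strand, and Tmem258 (chr19:10207189-10207287, plus strand) each lie in a single exon. Those of Tmem170b (chr13:41628067-41634472) and Tmem14c (chr13:41021166-41022157), both on the plus strand, and of Tmem170 (chr8:111866480-111869669) and Tmem242 (chr17:5439550-5440148), both on the minus strand, run across 2 exons with the intron left out. The mean Kyte-Doolittle hydropathy of the capital window, a scale on which higher means more hydrophobic, was 2.69 in Tmem109, 2.59 in Tmem258 and 2.37 in Tmem97. It was 1.95 and 1.75 in the mitochondrial Tmem14c and Tmem242. The paralogs Tmem170b and Tmem170, at 2.15 and 2.02, share 53 of the 99 printed bases when set side by side without gaps, and their calls were in opposite directions between the groups, that of Tmem170 being lost under 4 alternatives given below.

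Reads assigned to genes numbered 7529136 and 8608369 in the cytosol libraries and 5228713 and 5171092 in the migrasome libraries, here and below with replicate 1 before replicate 2. Values are deposited normalised read counts, where 1 read is worth 0.776 and 0.686 in the cytosol libraries and 1.41 and 1.32 in the migrasome libraries. Differences are log2(value + 1) in migrasome less that in cytosol, tested with limma over all genes, and a call is an adjusted p (Benjamini-Hochberg) under 0.05. Among 10860 genes tested, 8.68% were higher and 17.7% lower, and the median difference was 0.00. With every library scaled to the same total 316 genes were higher and 2517 lower, and with quantile normalization 1194 and 1403, against 943 and 1919 as deposited. These scalings moved the median of all genes by over 0.1, to -0.28 and 0.11. Values are relative to the rest of each library, so fewer migrasomes that hold an mRNA and fewer copies per migrasome cannot be told apart.

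All 9 tested mitochondrially encoded mRNAs were higher in migrasome (median difference 2.18). Of 4 tested nuclear RNAs, the abundant 7SK RNA gene Rn7sk fell. The others, Malat1 (-0.79), Neat1 (-0.86) and Kcnq1ot1 (-0.58), had negative differences that did not pass. Markers of epithelium and endothelium were at summed values of at most 3.95 in every library, and those of macrophages and leukocytes at 17.0 to 28.1, whereas fibroblast markers summed to 53827 and 49359 in cytosol and 73050 and 59289 in migrasome. Most of these sums came from Vim, at 33076 and 26052 in migrasome, and S100a4, at 37523 and 29912. Of the 8 fibroblast markers tested, 5 fell (Col1a1, Col1a2, Col3a1, Pdgfra and Pdgfrb) and 1 rose (Vim). Of all tested genes 17.7% fell and 8.68% rose. The 4 neuronal markers summed to 37.0 to 42.7 in cytosol and 80.6 to 90.8 in migrasome. Of 3 tested 1 rose, beside 8.68% of all tested genes. The part of these differences in the results below was not tested.

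Messenger RNAs of Tmem genes were scarcer in migrasome than in cytosol. Of the 135 members that could be tested, 74 fell, 2 rose and 59 did not pass. Their median log2 difference was -1.07. The share that fell was 54.8%, beside 17.7% of all tested genes, and the share that rose was 1.48%, beside 8.68%. Together the 245 genes held 0.559% and 0.582% of the summed value of the cytosol libraries and 0.307% and 0.377% of that of the migrasome libraries. As deposited they summed to 32673 and 34356 in cytosol and to 22701 and 25657 in migrasome, where the summed value of all genes was larger. Of the 74 that fell, 67 fell by at least 1 on the log2 scale and 13 by at least 2. Both migrasome libraries lay below both cytosol libraries for 92 of the 135 (68.1%, beside 36.3% of all tested genes) and above them for 12 (8.89%, beside 33.3%), and the groups overlapped for 31.

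The count was smaller with either cytosol library left out, and so was the count over all tested genes. The median difference of the members was then -1.11 without cytosol replicate 1 and -1.03 without cytosol replicate 2. With all 4 libraries it was -1.07. The cause of the smaller count was not tested. Of the 74, 34 fell under each of the alternatives tried, and none had a positive difference in any of them. The 110 untested members did not reach a value of 10 in at least 2 libraries. Of these 53 had no read in any library, and the other 57 had at most 35 reads over the 4 libraries. The tested members include 8 whose migrasome values were both under 10, of which 6 fell, so these had to be higher in cytosol to be tested at all, and the shares above hold only for the members that passed this filter.

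The counts differed between lists of members made by where their proteins reside. Among all tested genes 17.7% fell and 8.68% rose, with a median difference of -0.0043. The mRNAs of 21 of 25 tested members of the ER or nuclear envelope fell (84%, median -1.49). So did 13 of 17 of the Golgi, endosomes or lysosomes (76.5%, median -1.299) and 6 of 7 of the cell surface (85.7%, median -1.58). Of the 12 mitochondrial members 1 fell (8.33%, median 0.19), and of the 9 of the cilium 4 fell (44.4%, median -0.41). With Tmem5 and Tmem167b, which were left off the Golgi list and are described below, 13 of 19 fell. No member of these lists rose, and the single lipid droplet member, Tmem159, did not pass (-0.09). Locations were assigned from general knowledge for 71 tested members, with earlier results of these data known. Of the other 64, 29 fell and 2 rose (median -0.89). Among the calls in the lists, Tmem173 (ER or nuclear envelope), Tmem206 (cell surface) and Tmem17 (cilium) had both migrasome values under 10. These genes had to be higher in cytosol to be tested at all. Members of a list are different genes, not replicates, and the lists were described by counts and medians with no test between them.

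**Figure D1:**
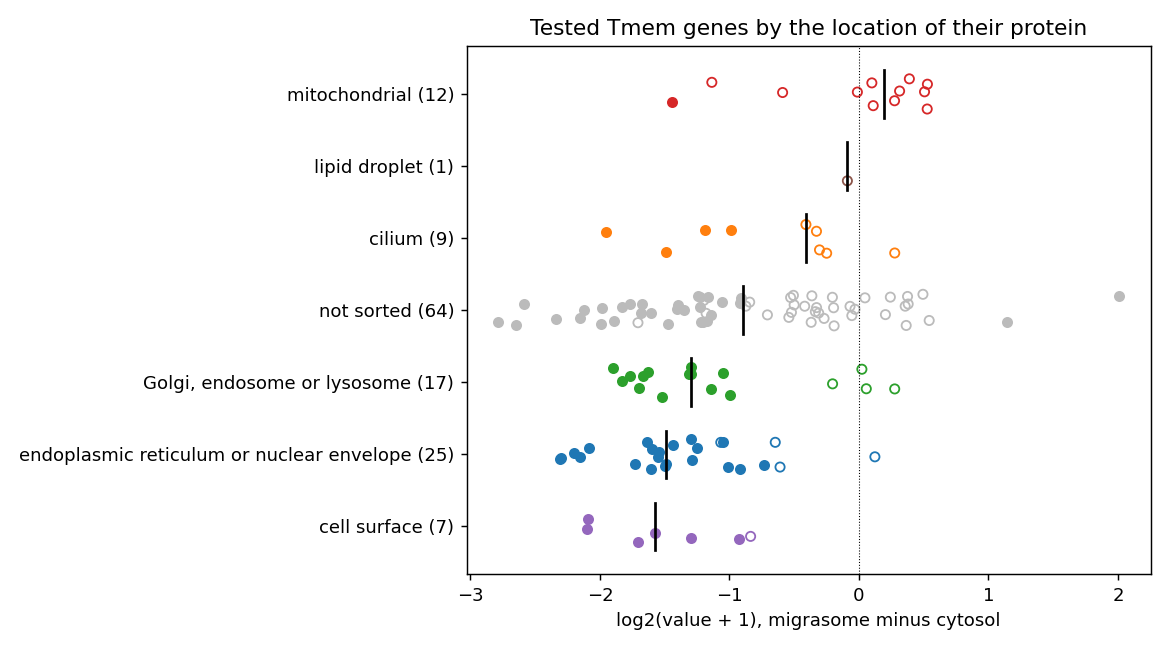
Log2 difference (migrasome minus cytosol, x axis) of each of the 135 tested Tmem genes, in rows by the location of the protein with the number of genes in parentheses. Points are genes, filled where the limma test was passed, and the vertical bars are medians, which lie at -1.49 for the ER or nuclear envelope and at 0.19 for mitochondria.

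The summed values show the same contrast in every library. The 25 tested ER and nuclear envelope members summed to 7977 and 8841 in the cytosol libraries and to 3009 and 3903 in the migrasome libraries. The 12 mitochondrial members summed to 3997 and 4020 in cytosol and to 4934 and 4515 in migrasome. Both migrasome sums thus lay below the cytosol sums for the first list and above them for the second.

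Among the 10 most negative differences of members with a cytosol mean of at least 50 were 4 genes of the ER or nuclear envelope. Tmem97, which encodes the sigma-2 receptor, a sterol-related protein of the ER and lysosome, stood at 889 and 1217 in cytosol and at 147 and 345 in migrasome. Its log2 difference was -2.20 ± 0.35 (SE), and the groups did not overlap. Tmem41b, on chromosome 7 from 109972187 to 109986929 (minus strand), encodes a lipid scramblase needed for autophagosome formation and stood at 469 and 438 in cytosol and at 62.2 and 132 in migrasome (-2.31 ± 0.32). Tmem109, which encodes a cation channel of the ER, stood at 517 and 657 in cytosol and at 102 and 167 in migrasome (-2.15 ± 0.27). Tmem43, on chromosome 6 from 91473703 to 91488463 (plus strand), encodes a protein of the inner nuclear membrane. It stood at 520 and 487 in cytosol and at 97.6 and 142 in migrasome, with a log2 difference of -2.09 ± 0.24 (limma adjusted p = 0.00055). Each of these 4 fell under every alternative tried.

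A pair of cell surface and Golgi genes fell by similar amounts. Tmem2, which encodes a hyaluronidase of the cell surface and is now called Cemip2, stood at 493 and 435 in cytosol and at 59.4 and 192 in migrasome (-2.10 ± 0.44). Tmem59, which encodes a protein of the Golgi and late endosomes, stood at 321 and 384 in cytosol and at 82.0 and 107 in migrasome (-1.90 ± 0.24), but 11.3% of its exon length is shared with Tceanc2. The flippase subunit gene Tmem30a, on the cell surface list and named after its values were seen, stood at 866 and 815 in cytosol and at 286 and 276 in migrasome (-1.58 ± 0.20). In all 3 genes both migrasome libraries lay below both cytosol libraries.

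The remaining 4 of the 10 have no location assigned here. Tmem37 stood at 80.7 and 117 in cytosol and at 12.7 and 18.4 in migrasome (-2.59 ± 0.35), and Tmem101 at 140 and 166 and at 18.4 and 46.1 (-2.34 ± 0.40). Tmem185b stood at 80.7 and 108 and at 12.7 and 40.8 (-1.98 ± 0.48), but leaving out migrasome replicate 1 gave -1.18 and leaving out replicate 2 gave -2.78, and it did not pass with no filter (limma adjusted p = 0.052). Tmem44 was low, at 36.5 and 76.8 in cytosol and 9.90 and 13.2 in migrasome, the latter 7 and 10 reads, and it no longer passed when cytosol replicate 2 was left out (difference -1.59, limma adjusted p = 0.13). Migrasome replicate 2 was above replicate 1 in each of the 10, in 52 of the 74 members that fell and in 84 of all 135 tested members.

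**Figure D2:**
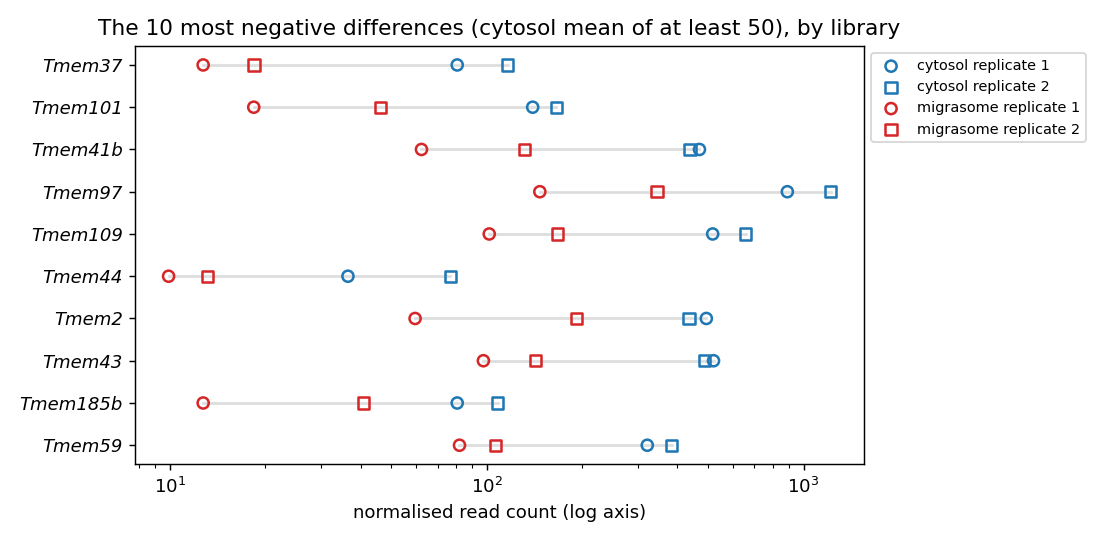
Normalised read count (x axis, log scale) of the 10 members with the most negative differences at a cytosol mean of at least 50, 1 row per gene, with cytosol libraries in blue, migrasome libraries in red, circles for replicate 1 and squares for replicate 2. In each row both red symbols lie left of both blue ones, and migrasome replicate 1 is the lowest.

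Of the 61 members that did not fall, 2 rose, 22 had a positive difference that did not pass and 37 a negative one that did not pass. The 2 that rose were Tmem170b and Tmem248, whose proteins have 3 and 2 predicted segments and no location assigned here. Tmem170b, on chromosome 13 from 41605907 to 41641355 (plus strand), stood at 258 and 206 in cytosol and at 611 and 1423 in migrasome. The log2 difference was 2.01 ± 0.35 (SE), with a limma adjusted p = 0.0028. Both migrasome libraries were above both cytosol libraries, with replicate 2 the higher. It rose under every alternative tried.

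Tmem248, on chromosome 5 from 130217081 to 130243765 (plus strand), stood at 718 and 761 in cytosol and at 1113 and 2402 in migrasome (1.14 ± 0.32, limma adjusted p = 0.026). The groups did not overlap, but the call was lost with every library scaled to the same total (difference 0.87, limma adjusted p = 0.10), with quantile normalization (0.96, limma adjusted p = 0.062), with eBayes without a trend and with no filter. Without migrasome replicate 2 the count that rose was 6, the additional genes being Tmem126a, Tmem14c, Tmem242 and Tmem256, named here for that setting only.

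The mitochondrial members mostly lay at or a little above their cytosol level. Tmem242, which encodes an assembly factor of the mitochondrial ATP synthase, stood at 598 and 711 in cytosol and at 991 and 894 in migrasome (0.53 ± 0.20, limma adjusted p = 0.080). Tmem261, now called Dmac1 and needed for complex I assembly, stood at 168 and 214 and at 249 and 301 (0.53 ± 0.24). Tmem126a, which acts in complex I assembly, stood at 327 and 283 and at 464 and 404 (0.51 ± 0.21). Tmem14c, an inner membrane protein of haem synthesis, stood at 957 and 967 in cytosol and at 1400 and 1134 in migrasome (0.39 ± 0.20). In these 4 genes the migrasome libraries lay above the cytosol libraries, and none passed with the values as deposited. Tmem261 passed as higher with quantile normalization (0.74, limma adjusted p = 0.046).

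Tmem126b, a paralog of Tmem126a that also acts in complex I assembly, stood at 103 and 121 in cytosol and at 147 and 125 in migrasome (0.27 ± 0.25), and migrasome replicate 2 was above cytosol replicate 2 by a small margin. In the next 4 members the groups overlapped. Tmem65, an inner membrane protein, stood at 978 and 798 and at 966 and 941 (0.11 ± 0.20), and the ATP synthase assembly gene Tmem70 at 218 and 268 and at 235 and 245 (-0.01 ± 0.22). Tmem160 stood at 150 and 137 and at 184 and 129, and the low Tmem143 at 30.3 and 26.7 and at 28.3 and 44.7. None of these differences passed.

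In the remaining 3 mitochondrial members both migrasome libraries lay below both cytosol libraries. Tmem186, which encodes a complex I assembly factor, stood at 95.4 and 99.5 in cytosol and at 32.5 and 38.2 in migrasome, and it was the single member of this list that fell (-1.44 ± 0.28, limma adjusted p = 0.0059). It fell under every alternative tried. Tmem11, which shapes the inner membrane, stood at 337 and 354 and at 229 and 229 (-0.59 ± 0.21, limma adjusted p = 0.061), and its groups did not overlap. It passed as lower with every library scaled to the same total (difference -0.86, limma adjusted p = 0.017). Tmem177, which acts in cytochrome oxidase assembly, stood at 34.1 and 39.8 and at 8.49 and 30.3 without passing, and migrasome replicate 1 was far below the rest. Its difference of -1.14 became -1.997 without migrasome replicate 2, where it passed as lower (limma adjusted p = 0.0013), and -0.28 without migrasome replicate 1.

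**Figure D3:**
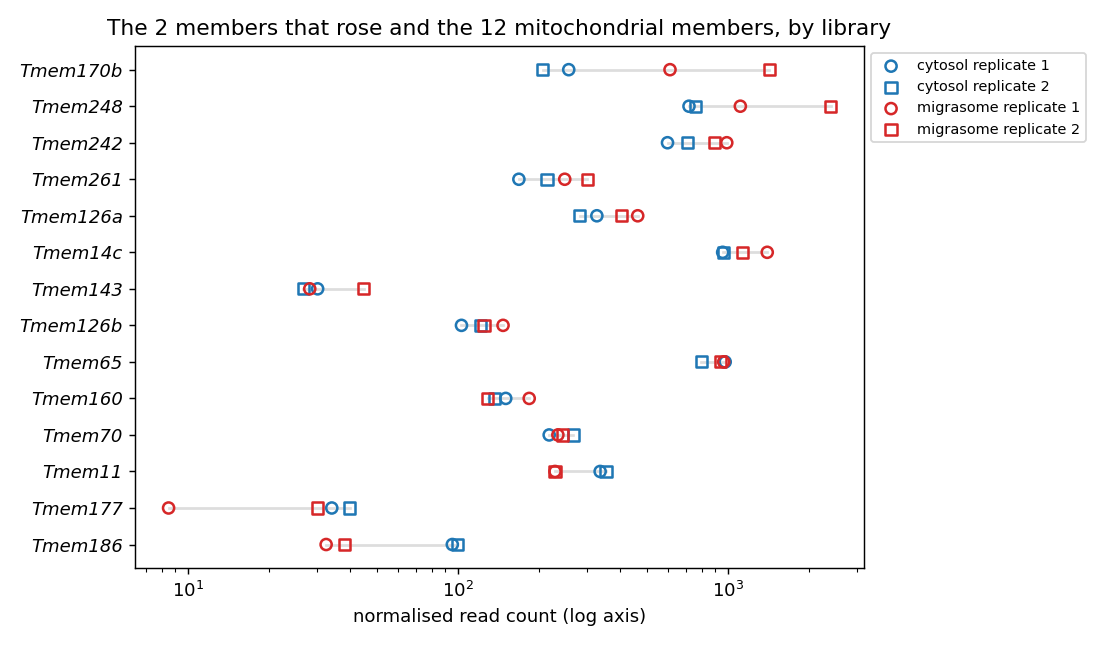
Normalised read count (x axis, log scale) of the 2 members that rose and the 12 tested mitochondrial members, with cytosol in blue, migrasome in red, circles for replicate 1 and squares for replicate 2. Tmem170b and Tmem248 are far apart between the migrasome replicates, and Tmem186 is the mitochondrial gene with both migrasome values well below both cytosol values.

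Genes that act with the mitochondrial members were given from a separate list. Of 27 tested assembly factors of complex I and cytochrome oxidase, 26 did not pass, 1 fell and none rose (median 0.26), so that 3.70% fell, beside 17.7% of all tested genes, with 8.68% of those higher. Coa5 stood at 916 and 1153 in cytosol and at 1099 and 1250 in migrasome, and Ndufaf4 at 517 and 718 and at 587 and 629. Acad9, a core complex I assembly factor, stood at 337 and 409 and at 595 and 513, the groups not overlapping. The one that fell was Sco2, a copper carrier for cytochrome oxidase, at 49.6 and 50.1 in cytosol and 9.90 and 22.4 in migrasome, named after its values were seen, and it did not pass without either cytosol library (limma adjusted p = 0.067 and 0.072).

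The ciliary members encode proteins of the transition zone, the gate at the base of the cilium, and split into those that fell and those near their cytosol level. Tmem67 stood at 36.5 and 36.4 in cytosol and at 7.07 and 10.5 in migrasome (-1.96 ± 0.41). Tmem231 stood at 31.8 and 32.9 and at 14.1 and 13.2 (-1.19 ± 0.38), Tmem17 at 19.4 and 18.5 and at 7.07 and 5.26 (-1.49 ± 0.47), and Tmem138 at 115 and 167 and at 62.2 and 77.6 (-0.99 ± 0.28). Tmem67, Tmem231 and Tmem17 had 10 or fewer reads in each migrasome library and did not pass without either cytosol library (for Tmem17 limma adjusted p = 0.28 and 0.25, for Tmem231 0.25 and 0.27, for Tmem67 0.064 and 0.067). Tmem138 did not pass without cytosol replicate 2 (difference -0.72, limma adjusted p = 0.30) or without migrasome replicate 1 (-0.83, limma adjusted p = 0.051). Both migrasome values of Tmem17 were under 10, so it had to be higher in cytosol to be tested at all. Tmem17 and Tmem231 also did not pass with DESeq2, with no filter or with quantile normalization. Nor did Tmem138 with no filter, quantile normalization or eBayes without a trend. Tmem138 also shares 39.4% of its exon length with other genes.

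Tmem216 stood at 80.7 and 145 in cytosol and at 73.5 and 89.5 in migrasome, and Tmem107 at 109 and 89.2 and at 94.8 and 64.5, both with overlapping groups. The differences of Tmem218, Tmem237 and Tmem80 were -0.30, -0.25 and 0.28, and none passed. Among 12 tested partners of the transition zone 2 fell and none rose (median 0.03), and the 16.7% that fell is near the 17.7% of all tested genes. Those that fell were the tectonic genes Tctn3 (-2.15) and Tctn1 (-1.89), named after their values were seen, and Tctn1 did not pass without cytosol replicate 2 (-1.81, limma adjusted p = 0.056). Cep290 (0.02) and Cc2d2a (0.57), which are among the more abundant partners, did not pass.

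Members that fell encoded longer proteins, with a median of 337.5 residues and 3 segments, beside 226 residues and 2 segments in the members that did not fall. A segment was a window of 19 residues with a mean hydropathy of at least 1.6 in the translated GENCODE sequence, and a coding sequence was found for 133 tested members, all but Tmem134 and the antisense gene Tmem147os. Proteins of up to 150 residues had 3 of 23 mRNAs that fell (median -0.03), those of over 150 and up to 300 residues 27 of 52 (median -0.95) and longer ones 44 of 58 (median -1.44). Among other genes in the same length ranges 7.56%, 14.4% and 19.2% fell, beside 13.0%, 51.9% and 75.9% of the members. The log2 difference and the protein length, on a log2 scale, had a Pearson r of -0.47 and a Spearman rho of -0.50 across 133 genes. With the number of segments these were -0.36 and -0.39, and with exon length -0.17 and -0.21. Genes measured in the same 4 libraries are not independent replicates, and these correlations are given as descriptions.

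Members with 2 or more segments fell in 68 of 109 cases (median -1.18), beside 683 of 1259 other genes of that kind (54.2%, median -1.08). Members with 1 segment away from the tail fell in 5 of 13 cases, beside 501 of 1521 other genes (32.9%). Those without a segment fell in 1 of 7 cases, beside 536 of 7103 other genes (7.55%). Members with 4 or more segments fell in 31 of 46 cases, beside 350 of 556 other genes (62.9%). None of these shares was tested against another.

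Among proteins with 2 or more segments, the counts were also read by size. Members of up to 150 residues fell in 3 of 16 cases (median -0.32), those of over 150 and up to 300 in 25 of 43 and longer ones in 40 of 50. Among other genes with 2 or more segments the counts were 10 of 39, 136 of 223 and 537 of 997, and in both sets the smallest proteins had the lowest share. Above 300 residues the share was 80% of members and 53.9% of other genes. The cuts at 150 and 300 residues were chosen after the values were seen.

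**Figure D4:**
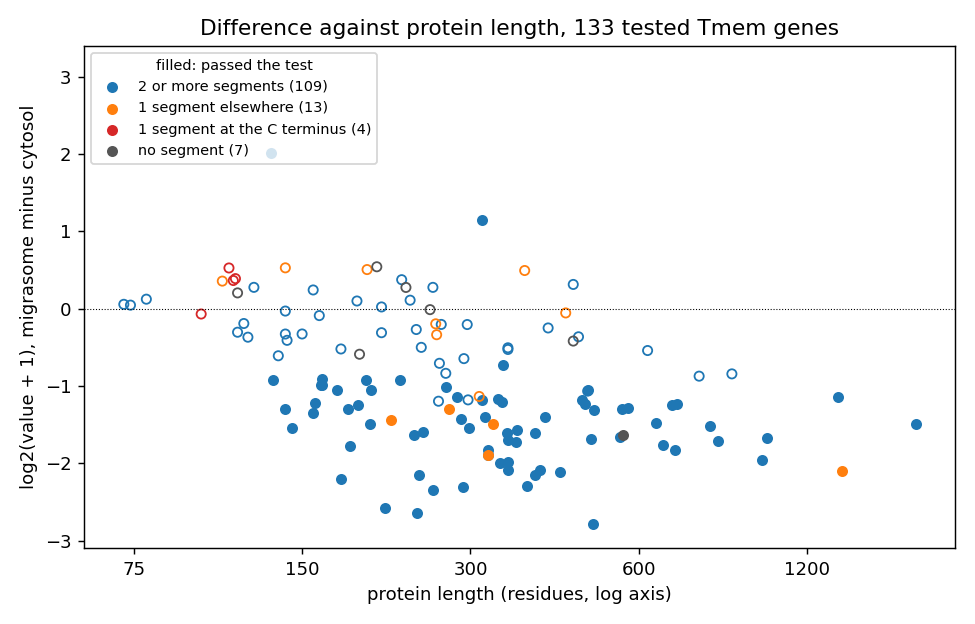
Log2 difference (y axis) against protein length in residues (x axis, log scale) for 133 tested Tmem genes, coloured by the number and place of hydrophobic segments and filled where the limma test was passed. Below 150 residues most points lie near 0 and are open, and above 300 residues 44 of 58 are filled and below 0.

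Several of the most abundant small members did not pass. Tmem167, which encodes a Golgi protein of 72 residues, stood at 1036 and 1266 in cytosol and at 1126 and 1261 in migrasome, and its paralog Tmem167b, of 74 residues and not on a location list, at 780 and 872 and at 948 and 766. Tmem258, a subunit of the oligosaccharyltransferase of the ER with 79 residues, stood at 580 and 550 and at 638 and 594 (0.12 ± 0.20). In Tmem167 and Tmem167b the groups overlapped, and in Tmem258 migrasome was above cytosol by less than the SE. Tmem167 has processed pseudogenes in the table, so its value is uncertain. The 3 small members that fell were Tmem170 (-1.55), Tmem18 (-1.29), which encodes a nuclear envelope protein, and Tmem60 (-0.92). Tmem170 and Tmem60 did not pass when either cytosol library was left out, with DESeq2 or with no filter. Nor did Tmem60 without migrasome replicate 1 (-0.61), with eBayes without a trend or with quantile normalization.

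A single segment that ends within 30 residues of the C terminus, the shape of a tail-anchored protein, was found in 4 tested members, Tmem14a, Tmem14c, Tmem256 and Tmem261. None fell and none rose (median 0.38), and of 187 other genes with that shape 35 fell (18.7%) and 13 rose (median 0.07). Among all tested genes 17.7% fell and 8.68% rose, and 4 members are too few to compare with these shares. The shape is a count of strong segments only. Tmem14c is known to span its membrane several times, and its other segments did not reach the minimum, so none of the 4 is called tail-anchored here. Of the 7 members without a segment, Tmem11, Tmem70, Tmem126b and Tmem135 are known membrane proteins, and the absence of a strong segment does not make them soluble. The one of these 7 that fell was Tmem209 (-1.64), of the nuclear envelope.

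The other members of the ER and Golgi lists that did not pass were Tmem39a (-1.07, limma adjusted p = 0.052), Tmem38b (-0.65) and Tmem203 (-0.61) of the ER, and Tmem192 (-0.20), Tmem199 (0.02) and Tmem55a (0.28) of the Golgi, endosomes or lysosomes. Tmem39a passed as lower without migrasome replicate 2 (-1.66), without cytosol replicate 1 (-1.23) and with edgeR. It also did so with a filter on a mean of at least 50, a pseudocount of 5, the same total per library and the replicate block. Tmem199, an assembly factor of the vacuolar proton pump, stood at 304 and 290 in cytosol and at 331 and 275 in migrasome. Tmem55a, a phosphoinositide phosphatase of endosomes now called Pip4p2, stood at 185 and 206 and at 215 and 261. Tmem5, now called Rxylt1, encodes an enzyme of the Golgi that builds the dystroglycan glycan but was left off the Golgi list. It stood at 953 and 975 and at 1095 and 786, with overlapping groups.

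Another 4 members were among the largest positive differences without passing. Tmem183a stood at 529 and 647 in cytosol and at 775 and 877 in migrasome (0.49 ± 0.21), the groups not overlapping. Tmem29 stood at 62.8 and 106 and at 116 and 122, Tmem134 at 285 and 215 and at 369 and 282, and Tmem256 at 306 and 263 and at 523 and 255. For Tmem134 and Tmem256 the groups overlapped. Among the 8 most abundant members, the highest level per length was that of Tmem14c, at 1053 per kilobase of exon in cytosol and 1387 in migrasome. Tmem242 followed at 356 and 513, and Tmem248 stood at 181 and 430.

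The machinery that inserts such proteins was read from 3 lists. Of 5 tested components of the translocon for multispan proteins, 4 fell and none rose (median -1.74). The share that fell was 80%, beside 17.7% of all tested genes, of which 8.68% rose. Nomo1 stood at 1074 and 902 in cytosol and at 288 and 301 in migrasome, Ncln at 963 and 1087 and at 192 and 270, and Ccdc47 at 560 and 555 and at 119 and 207. Tmem147, which binds Ncln and Nomo1, and Tmem208, of a further ER targeting route, are Tmem members that fell (-0.92 and -1.05), but Tmem147 did not pass without cytosol replicate 2 (-0.77, limma adjusted p = 0.17), nor Tmem208 without cytosol replicate 1 (-0.999, limma adjusted p = 0.075).

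Of 9 tested subunits of the EMC, an insertase of the ER membrane, 5 fell and 1 rose (median -0.78). The share that fell was 55.6%, beside 17.7% of all tested genes, of which 8.68% rose. The one that rose was Emc2 (0.73 ± 0.21), a soluble subunit. It did not pass without cytosol replicate 1 (0.69), cytosol replicate 2 (0.77) or migrasome replicate 1 (0.54). Nor did it pass with the same total per library (0.46, limma adjusted p = 0.10), quantile normalization, no filter or eBayes without a trend. Those that did not pass were the soluble Emc8 (-0.01) and the membrane subunits Mmgt1 (-0.78) and Emc6 (-0.13), the last named after its values were seen. Of 7 tested factors that insert tail-anchored proteins 1 fell and 1 rose (median 0.21). These are 14.3% each, beside 17.7% and 8.68% of all tested genes. Bag6, a soluble chaperone, rose (0.93 ± 0.24), though not without cytosol replicate 2 (0.65). Its call was also lost with the same total per library (0.66, limma adjusted p = 0.072), with no filter and with eBayes without a trend. Asna1 (0.20) and Get4 (-0.17) did not pass. The membrane receptor of this route has the subunits Caml and Wrb, named after their values were seen. Caml fell (-1.64), whereas Wrb stood at 288 and 291 in cytosol and at 346 and 882 in migrasome (0.93 ± 0.36, limma adjusted p = 0.083). Wrb passed as higher without migrasome replicate 1 (1.603, limma adjusted p = 0.00011), and with edgeR and DESeq2.

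Related members were set in pairs and their calls counted. Since 54.8% of the 135 tested members fell and 59 did not pass, pairs of unrelated members would often differ too. The counts were not tested against that. In 19 pairs of Tmem genes with the same number, listed after the values were seen and with Tmem106b in 2 of them, both fell in 6, 1 fell and the other did not pass in 9, neither passed in 3, and in 1 the members moved in opposite directions. That pair was Tmem170, at 33.4 and 34.3 in cytosol and 11.3 and 10.5 in migrasome, 8 reads in each, and Tmem170b. Tmem170 did not pass when either cytosol library was left out (limma adjusted p = 0.14 and 0.16), with no filter or with DESeq2, while its difference stayed between -1.602 and -1.53 in these. Their log2 differences were -1.55 ± 0.38 and 2.01 ± 0.35, and their proteins have 144 and 132 residues and 3 segments each.

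Tmem41a (-0.71) and Tmem41b (-2.31), Tmem185a (-0.51) and Tmem185b (-1.98), and Tmem55a (0.28) and Tmem55b (-1.14) were other pairs of which 1 member fell. Without migrasome replicate 2, Tmem41a (-1.17, limma adjusted p = 0.039) and Tmem185a (-0.84, limma adjusted p = 0.023) passed as lower too. Tmem86a (-2.64) and Tmem86b (0.37) also differed, but Tmem86a had 3 reads in each migrasome library and did not pass without cytosol replicate 1 (-2.30, limma adjusted p = 0.077). Tmem55b did not pass without either cytosol library. In the pairs Tmem50a and Tmem50b, Tmem63a and Tmem63b, and Tmem161a and Tmem161b both fell by amounts within 0.2 of each other, but Tmem50b, Tmem161a and Tmem161b did not pass without cytosol replicate 2, nor Tmem161b without replicate 1. A call in 1 member and not in the other does not show that they differ, and the difference within a pair was not tested.

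**Figure D5:**
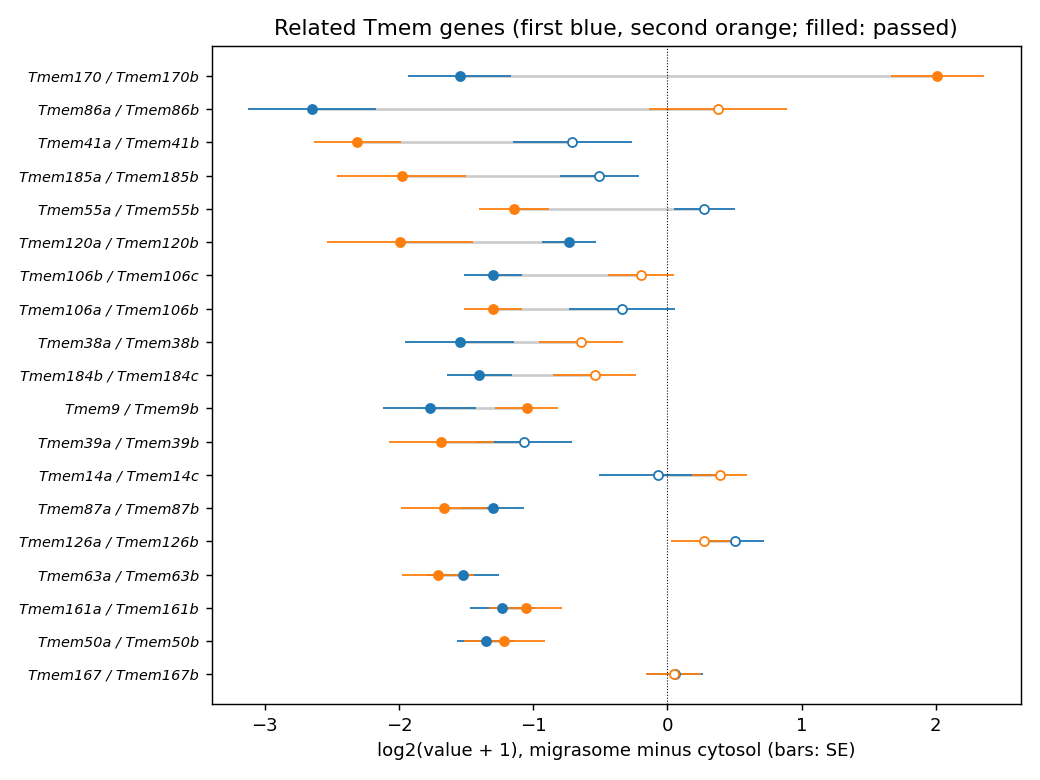
Log2 difference (x axis, bars are SE) of the 2 members of each of 19 pairs of related Tmem genes, the first named in blue and the second in orange, filled where the limma test was passed. The pairs are sorted by the gap between their members, with Tmem170 and Tmem170b on top at -1.55 and 2.01.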

How the data were processed

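RNA of migrasome and cytosol was sequenced in 2 libraries each. Per the submitters' processing notes, cutadapt, Trimmomatic, FastQC, STAR, HTSeq and DESeq were used with the build GRCm38. Sources used here state no version, annotation or strand setting, so overlapping genes and near-identical copies are uncertain. The authors deposited a signal: gene counts divided by 1 size factor per library. This reading comes from the values, 100% of which were whole multiples (tolerance 0.001) of the worth of 1 read. The test was limma 3.58.1 (R 4.3.3, eBayes with a trend) on log2(value + 1), a scale that shrinks the change of low genes. It took in each gene that reached 10 in 2 or more of 4 libraries. Alternatives on recovered reads used edgeR 4.0.16 and DESeq2 1.42.0, and the test was tried on simulated data. Leaving out a library assumes that the lone library of its group varies like the others.

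Symbols were matched to GENCODE M21, 237 directly and 8 by a newer symbol from RefSeq synonyms. Proteins were translated from 1 principal transcript per gene, and 2 tested members had none. Members, lists, locations and tests were chosen with earlier results of these data known. Named were each member that rose, the 10 most positive differences where the migrasome mean reached 50, the 10 most negative among those that fell where the cytosol mean reached 50, the 8 most abundant, each tested mitochondrial and ciliary member, and up to 3 abundant genes of each partner list. Every other Tmem or partner gene was named after its values were seen. The plots were made in matplotlib 3.10.9.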

Additional observations from a re-analysis of the deposited data

How the results depend on the processing

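The 74 Tmem genes that fell were within 1.5 times that count under the pseudocounts, filters, scalings, eBayes without a trend, edgeR (76) and DESeq2 (65), and over the single libraries left out the count ranged from 45 to 83. The count that rose was 1 with eBayes without a trend, with no filter and with the same total per library, 3 with the replicate block, and 2 to 6 over the libraries left out. The median of the members was -0.61 with no filter, -0.80 with quantile normalization, -1.34 with the same total per library and -1.16 to -0.88 over the libraries left out. Relative to all genes it was -1.06 with the same total and -0.92 with quantile normalization. Over all genes, the count that fell was 1147 to 2800 over the libraries left out. The count that rose was 483 with eBayes without a trend, 393 with no filter, 316 with the same total, 1802 with the replicate block and 231 to 2085 over the libraries left out. The causes were not tested. None of the 40 named genes reversed with a call in any alternative. The replicate numbers are not said to pair the libraries. Deviations of same-numbered libraries from their group means correlated at 0.23 over 10860 genes, and with the replicate block 81 members fell, with Tmem11 (limma adjusted p = 0.026) and Tmem177 (0.015) then passing as lower and Tmem242 (0.040) as higher. Leaving out the members that share at least 10% of their exon length with other genes, an alternative added after seeing the data, left 60 that fell and 2 that rose. Depth limits the lowest members, 8 of which had migrasome values under 10 in both libraries.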
